A study of Dichotomyctere nigroviridis with 22 samples.

Results

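In the green-spotted puffer (Dichotomyctere nigroviridis) dpydb encodes dihydropyrimidine dehydrogenase, the first enzyme of pyrimidine breakdown, and it is described here together with the genes of the enzymes that follow it. The gene dpydb was chosen by its measured response, a lower level after phoenixin-14 (PNX-14) in both organs, and the other genes by name, as dpys and upb1. These were 3 of the 20108 genes listed in either organ's table, and no other gene named for dihydropyrimidine dehydrogenase was listed. Because dpydb was selected on its treatment response, that response is given here as a description with no test.

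Uracil and thymine are broken down in a chain of enzyme steps. Dihydropyrimidine dehydrogenase reduces the base and limits the rate of the route, dihydropyrimidinase (dpys) opens the reduced ring, and beta-ureidopropionase (upb1) releases beta-alanine from uracil or beta-aminoisobutyrate from thymine. In mammals the route is strongest in the liver, and its first enzyme also clears the drug 5-fluorouracil. Beta-alanine feeds the synthesis of carnosine, and the same transaminase that degrades it also degrades the transmitter GABA.

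Vitellogenic females, fish of wild origin whose ovaries were filling with yolk, were injected with PNX-14, a small peptide made in brain and gut, at 100 ng/g of body weight, or with the vehicle alone. Hypothalamus and ovary were taken after 24 h, and poly(A) RNA was sequenced from 6 control and 6 PNX-14 hypothalami and from 5 control and 5 PNX-14 ovaries. Each sample came from 1 fish. The study's methods describe 6 fish per treatment sampled for both organs, so hypothalami and ovaries shared fish, though the labels do not match them. The labels and the study's methods differ on the vehicle and on how ovary was taken, as saline or sterile water and as whole ovary or biopsy, so neither is stated here as fact. No transgene or mutation was involved, and the injection was the only stated difference between the groups of an organ.

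The libraries held between 9140910 and 15735216 reads assigned to genes. A count of 3 reads, taken as the limit that a count of 0 allows, was worth 0.185 to 0.325 CPM, counts scaled to library size, depending on the library. That limit covers counting error only. The tissue labels matched their markers, as the 10 neuron genes summed to 2802 to 4125 CPM in hypothalami and to 19.3 to 25.3 CPM in ovaries. Hypothalami also held egg RNA in unequal amounts. The 9 oocyte genes, led by the egg coat genes zpax1 and zp2l2, summed to 68.7 to 4200 CPM, which was 0.321 to 19.6% of the ovary mean. It exceeded 5% in control replicates 1, 2 and 5 and in PNX-14 replicates 3 and 4.

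The gene dpydb (ENSTNIG00000005550) lies on the plus strand of sequence that the TETRAODON 8.0 assembly has not placed on a chromosome, Un_random, from 79146828 to 79157260, with 3084 bases of transcript as the files give its length. In control hypothalami it stood at 62.7, 65.9, 4.74, 6.64, 36.2 and 5.85 CPM in replicates 1 to 6. Replicates 1, 2 and 5 were high and the other controls low, with no control between 6.64 and 36.2 CPM. In PNX-14 hypothalami dpydb stood at 3.9, 3.05, 6.31, 5.10, 2.74 and 1.55 CPM. None of the PNX-14 hypothalami reached the high controls, but replicates 3 and 4 lay above the lowest control, so the groups overlapped. The log2 fold change after PNX-14 was -3.00 (SE 0.75, n = 6 each), from a mean of 30.3 ± 28.9 CPM in controls to 3.77 ± 1.72 CPM (SD).

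In ovary the level of dpydb was lower and the groups stood apart. Control ovaries held 2.22, 4.89, 1.87, 4.16 and 1.42 CPM in replicates 1, 2, 3, 5 and 6, from 23 to 54 reads. PNX-14 ovaries held 1.16, 0.83, 0.77, 0.74 and 0.23 CPM in replicates 2 to 6, from 3 to 13 reads. Every PNX-14 ovary lay below every control ovary. The log2 fold change was -1.95 (SE 0.47, n = 5 each). At these read numbers counting error was a large part of each value, and the lowest ovary, PNX-14 replicate 6, was at the limit of 3 reads. The study also measured dpydb by qPCR. In ovary, with few samples, qPCR did not correlate positively with sequencing and the study could not verify the change. In hypothalamus the study reported a significant qPCR change and a positive correlation. For both organs its qPCR used RNA that had already been extracted from the sequenced fish. The qPCR therefore measured the same fish again and was not a check in other fish. In whole tissue, fewer cells that express a gene and less of its RNA per cell cannot be told apart.

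The response of dpydb was the smaller one in ovary, with a log2 difference of 1.1 between the organs' fold changes (SE 0.93), a difference close to its own standard error, and it was given no test. The order depended on the setting. Without the 5 hypothalami rich in oocyte RNA described below, the log2 fold change in hypothalamus was -1.06, nearer to 0 than that of ovary. That exclusion was added after seeing the data, and it removes the high controls. With the mean oocyte marker level as a covariate the order held, at -2.48 in hypothalamus and -1.98 in ovary. Over the 4 groups the order of the medians was 21.4 CPM in control hypothalami, 3.47 CPM in PNX-14 hypothalami, 2.22 CPM in control ovaries and 0.77 CPM in PNX-14 ovaries. Of the neighbours in that order, the hypothalamus groups overlapped, PNX-14 hypothalami (1.55 to 6.31 CPM) overlapped control ovaries (1.42 to 4.89 CPM), and the ovary groups did not overlap. Over all genes tested, 0.158% of 17126 in hypothalamus and 1.46% of 14777 in ovary had groups that did not overlap in either direction. As dpydb was chosen on this contrast, nothing is read from its place among them.

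**Figure D1:**
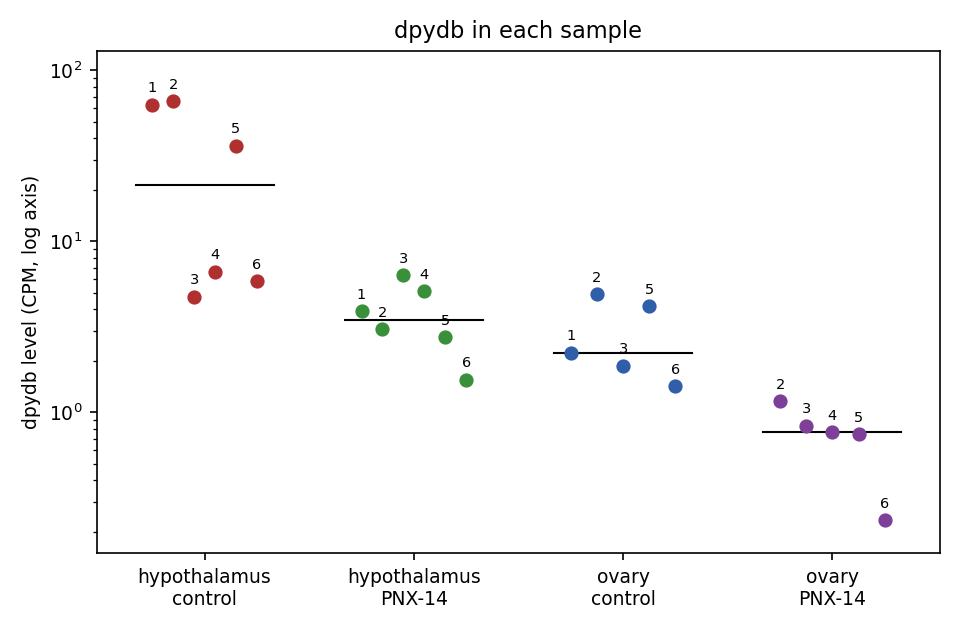
Level of dpydb in each of the 22 samples, in CPM on a log axis, by organ and treatment. Points are samples with their replicate number, lines are group medians (21.4, 3.47, 2.22 and 0.77 CPM), and control hypothalami split into 3 samples at 36.2 to 65.9 CPM and 3 at 4.74 to 6.64 CPM.

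Levels of dpydb were widely spread among control hypothalami. The standard deviation of log2 CPM was 1.77 among them, above that of 98.7% of 17126 genes, whose median was 0.31. Highest and lowest control differed 13.9-fold. The high controls that make this spread also enter the response on which dpydb was chosen, so nothing is read from its rank. Within the PNX-14 hypothalami the standard deviation was 0.68, above 90.8% of genes, and highest and lowest differed 4.08-fold. In ovary it was 0.72 in controls (above 86.8% of 14777 genes) and 0.66 after PNX-14 (above 89.7%). Genes of low count spread more on this scale, and each of the 10 ovaries had at most 54 reads of dpydb.

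The controls with high dpydb were the controls with the most egg RNA. In control replicates 1, 2 and 5 the oocyte markers reached 12.7, 19.6 and 15.1% of the ovary mean, and in the other controls 0.321 to 2.89%. In PNX-14 replicates 3 and 4 the markers reached 9.96 and 18.2% of the ovary mean, while dpydb stood at 6.31 and 5.10 CPM, the highest of their group and far under the high controls. Ovary itself never exceeded 4.89 CPM of dpydb. The oocyte marker share of each hypothalamus times that highest ovary level was largest in control replicate 2, at 0.96 CPM, where dpydb was measured at 65.9 CPM. This product takes the egg RNA to carry dpydb as the sampled ovaries did, which was not tested. Without the 5 hypothalami above 5% of the ovary marker level the log2 fold change was -1.06, and with the mean oocyte marker level as a covariate it was -2.48.

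**Figure D2:**
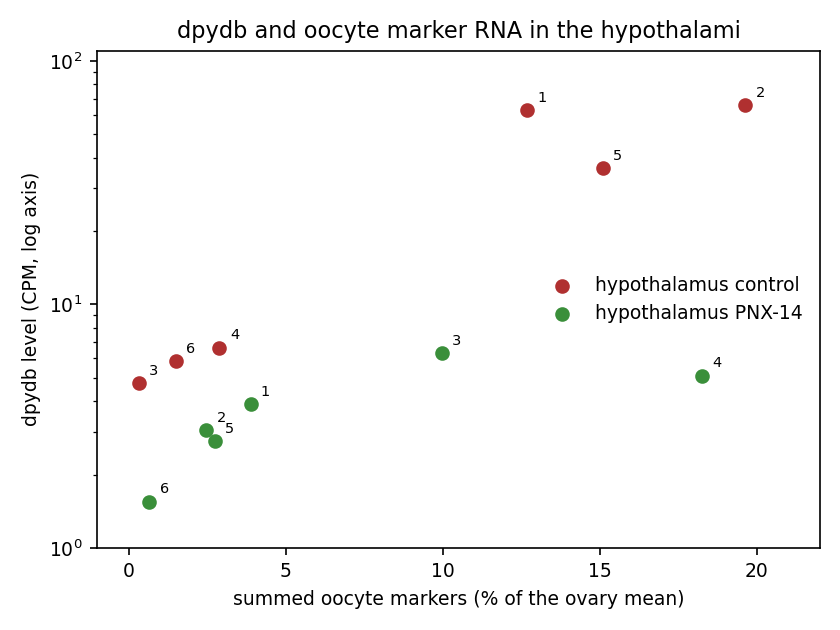
Level of dpydb (CPM, log axis) against the summed oocyte markers as a percentage of the ovary mean in the 12 hypothalami, numbered by replicate. Control replicates 1, 2 and 5 are high on both axes, whereas PNX-14 replicates 3 and 4 hold 9.96 and 18.2% of the marker level with 6.31 and 5.10 CPM of dpydb.

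Markers of other tissues also differed between the hypothalami. Control replicate 5 had the highest sums of skeletal muscle markers (2606 CPM, median of controls 87.2) and smooth muscle markers (5564 CPM, median of controls 383). PNX-14 replicate 4 was next at 1661 and 1992 CPM, and both are among the samples rich in oocyte markers. The skeletal list was led in hypothalami by desmb (up to 2182 CPM) and tpm2 (up to 401 CPM). The same genes led it in ovary, at means of 849 and 190 CPM, so its sum is not specific to skeletal muscle in these samples. The pituitary markers, a gland that lies against the hypothalamus, summed to only 1.99 to 6.96 CPM in hypothalami, with 0 to 5 of its 6 genes at 0 in a sample. The 3 highest sums, 5.15, 5.5 and 6.96 CPM, were those of control replicates 1, 2 and 5. After PNX-14, replicates 3 and 4 were at 3.55 and 4.39 CPM. The same 6 genes summed to 6.68 to 15.7 CPM in control ovaries and 7.74 to 52.4 CPM in PNX-14 ovaries. The sum is therefore not specific to pituitary in these samples. The part of egg, muscle or pituitary RNA in the level of dpydb was not tested.

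The levels in both organs can be set side by side by replicate number. If a replicate number marks the same fish in both organs, which the labels do not state, control fish 1, 2 and 5 held the 3 highest levels of dpydb among the 5 controls with both organs, in hypothalamus (62.7, 65.9 and 36.2 CPM) and in ovary (2.22, 4.89 and 4.16 CPM). Control fish 3 and 6 were lower in both, at 4.74 and 5.85 CPM in hypothalamus and 1.87 and 1.42 CPM in ovary. Among PNX-14 fish, number 6 was lowest in both organs, at 1.55 and 0.23 CPM. Number 2 was highest in ovary, at 1.16 CPM, but at 3.05 CPM lay below numbers 3 and 4 in hypothalamus. Hypothalamus exceeded ovary in all 10 pairs, from 2.53-fold in control fish 3 to 28.2-fold in control fish 1. No correlation between organs is given, because the control hypothalami fall into separate clusters.

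Apart from treatment, dpydb was an RNA of hypothalamus more than of ovary. Averaged over treatments its level was higher in hypothalamus by 2.48 on the log2 scale (SE 0.47, adjusted p = 4.2e-05 with edgeR's quasi-likelihood test). The gene was not chosen on this contrast, but the high control hypothalami enter both its treatment response and this difference. The p-value is therefore not free of the choice. With the assumed fish as the block the difference was 2.31 (adjusted p = 2.0e-05 with the same test). Within control fish the difference was 3.11 (SE 0.81) and within PNX-14 fish 1.91 (SE 0.43). Without the 5 hypothalami above 5% of the ovary marker level it was 1.02 (adjusted p = 0.0060). Differences of this kind were common, since 47.4% of 17840 genes were called higher in hypothalamus and 41.5% higher in ovary. The median of all genes lay at 0.20 with this scaling and at 0.35 with that of DESeq2, where dpydb stood at 2.64.

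The later enzymes of the route were close to the limit of detection in both organs. The dihydropyrimidinase gene dpys (ENSTNIG00000008212, chromosome 8, 1305647 to 1311232, plus strand, 1781 bases) had 55 reads over the 12 hypothalami and 39 over the 10 ovaries. Control hypothalami held 8, 1, 3, 9, 1 and 5 reads in replicates 1 to 6 and PNX-14 hypothalami 3, 1, 8, 6, 5 and 5. The groups covered nearly the same range. Control replicates 2 and 5, high for dpydb, held 1 read of dpys each, while control replicate 1 and PNX-14 replicates 3 and 4 stood high in their groups for both genes. Control replicate 4, low for dpydb, held the most dpys of the controls, at 9 reads. At these counts a difference of a few reads lies within counting error. Control ovaries held 0, 3, 4, 2 and 5 reads in replicates 1, 2, 3, 5 and 6 and PNX-14 ovaries 1, 5, 2, 4 and 13 in replicates 2 to 6, so that the single highest sample was the PNX-14 ovary with the least dpydb.

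The beta-ureidopropionase gene upb1 (ENSTNIG00000011441, chromosome 12, 11521270 to 11524289, minus strand, 1218 bases) was detected mainly in hypothalamus. Control hypothalami held 12, 9, 2, 8, 10 and 17 reads and PNX-14 hypothalami 4, 5, 5, 15, 6 and 2 in replicates 1 to 6. The control median of 0.857 CPM was above the PNX-14 median of 0.493 CPM, with full overlap. Ovaries held 1, 0, 0, 1 and 6 reads in controls and 1, 0, 0, 2 and 2 after PNX-14, with 4 of the 10 ovaries at 0, and 1 ovary, control replicate 6, above 3 reads.

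Neither dpys nor upb1 passed the filter on low counts in either organ, so 1 of the 3 genes was kept. In a fit without the filter dpys had log2 fold changes after PNX-14 of 0.14 in hypothalamus (adjusted p = 0.993) and 0.82 in ovary (adjusted p = 0.860), and upb1 of -0.53 (adjusted p = 0.978) and -0.53 (adjusted p = 0.948), all with edgeR. At this depth no treatment difference in either gene was detectable. Between organs upb1 was higher in hypothalamus by 2.46 (SE 0.55, adjusted p = 0.00023), a size near that of dpydb, and dpys by 0.22 (SE 0.49, adjusted p = 0.689) in the same unfiltered fit.

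**Figure D3:**
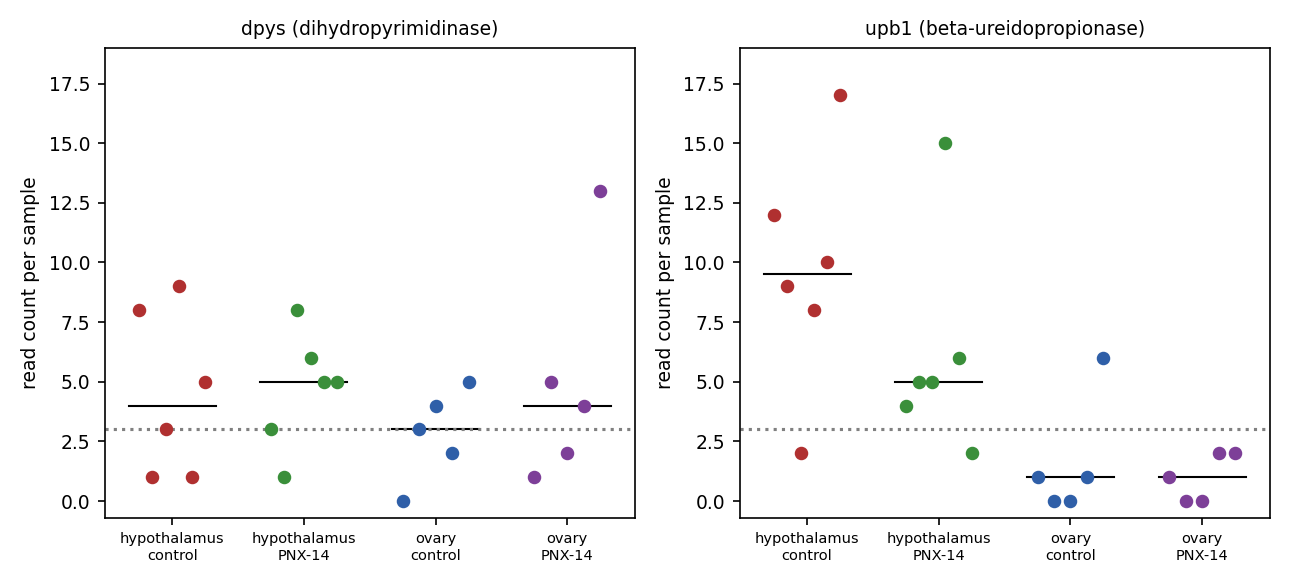
Read counts of dpys and upb1 in each sample by organ and treatment, with group medians as lines and the limit of 3 reads dotted. Counts of dpys run from 0 to 13 with all groups overlapping, and those of upb1 from 2 to 17 in hypothalami and 0 to 6 in ovaries.

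Per length, dpydb had the highest median of the 3 genes in hypothalamus. In control hypothalami its median was 6.97 FPKM, the deposited level per transcript length,, against 0.701 FPKM for upb1 and 0.208 FPKM for dpys. After PNX-14 the hypothalamus medians were 1.12, 0.398 and 0.308 FPKM in the same order. In PNX-14 ovaries dpydb (0.0765 to 0.357 FPKM) and dpys (0.0519 to 0.625 FPKM) overlapped, and upb1 reached 0.129 FPKM at most.

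The genes annotated on either side of dpydb were read to see whether its swings were shared along the sequence. On unplaced sequence, neighbours in the assembly need not be neighbours in the genome. The gene before it on the same strand, ENSTNIG00000005549, ends 3125 bases away and stayed at 93.5 to 127 CPM in all 12 hypothalami. The gene after it, tmtc1 (ENSTNIG00000005551), a transmembrane protein gene on the same strand whose start is 3038 bases beyond the end of dpydb, stayed at 79.4 to 102 CPM. Neither followed the 42.7-fold range of dpydb. Farther out, ttll12 (ENSTNIG00000005552), 17632 bases away on the other strand, had its highest levels, 31.3, 25.3 and 25.7 CPM, in control replicates 1, 2 and 5 and lay at 15.0 to 22 CPM in the rest. It was also higher in ovary, at 50.7 ± 19 CPM in controls (SD, n = 5). On the far side ENSTNIG00000005548, 27271 bases away, had 2 to 22 reads per hypothalamus.

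**Figure D4:**
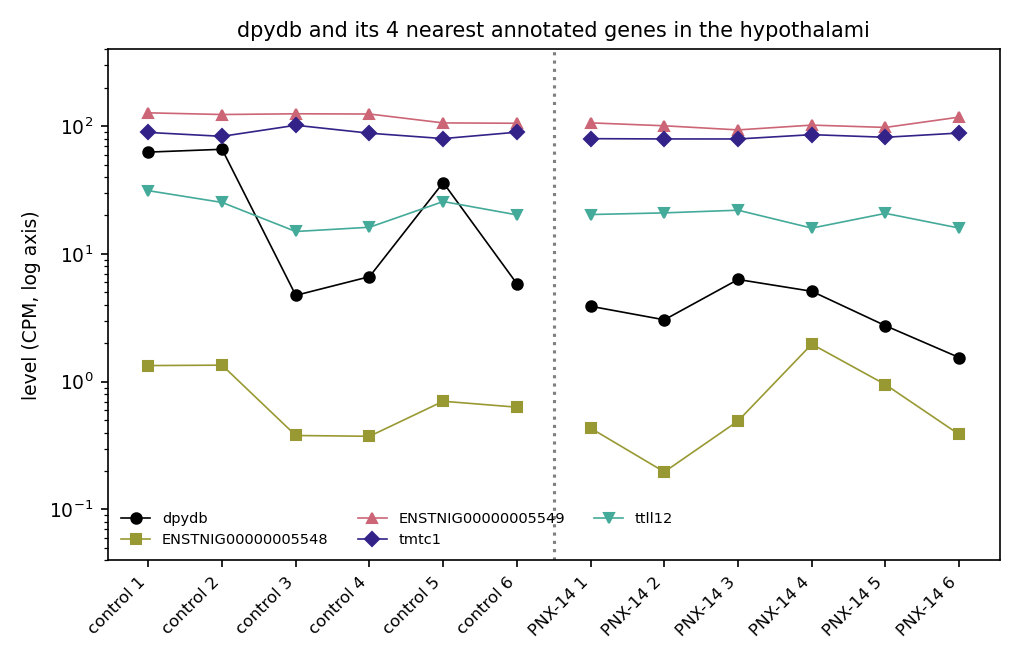
Levels of dpydb and its 4 nearest annotated genes in the 12 hypothalami (CPM, log axis, lines join the samples of a treatment for reading only). The closest genes, ENSTNIG00000005549 and tmtc1, stay at 93.5 to 127 and 79.4 to 102 CPM while dpydb runs from 1.55 to 65.9 CPM.

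The genes most like dpydb were found by Pearson correlation of log2 CPM after removal of the group means. Over the 12 hypothalami they were piwil2 (r = 0.958), C9orf85 (0.957), ENSTNIG00000005240 (0.955), gfer (0.954) and cep70 (0.949), the highest of 17125 genes. Removal of the group means leaves the 2 clusters of control hypothalami in place, so these r values also reflect that split and serve only as a ranking. With the group means left in, r was 0.766 to 0.798 for the 5 genes. The product of piwil2 guards germ cells against transposons, gfer encodes a sulfhydryl oxidase of mitochondria, and cep70 a centrosome protein. All 5 were higher in ovary than in hypothalamus, unlike dpydb. The gene cep70, for example, averaged 288 CPM in control ovaries and 36.3 CPM in control hypothalami, with 51.6, 71.9 and 59.3 CPM in control replicates 1, 2 and 5 and 8.82 to 15.3 CPM in the other controls. In PNX-14 replicates 3 and 4 cep70 stood at 38.5 and 48.8 CPM, near those controls, where dpydb did not. The 12 samples also differ in their oocyte markers, whose part in these correlations was not tested.

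Over the 10 ovaries the most similar genes were other ones. They were mpv17l2 (r = 0.928), tnfrsf1a (0.927), ENSTNIG00000001452 (0.902), ENSTNIG00000001583 (0.899) and prkag2b (0.893), of 14776 genes. The first encodes a mitochondrial inner membrane protein, tnfrsf1a a receptor of tumour necrosis factor, and prkag2b a subunit of the energy sensor AMPK. Their own log2 fold changes in ovary lay between -0.29 and 0.47, against -1.95 for dpydb. The group means were removed before the ranking, so the response could not enter these r values. As the highest of 14776 genes over 10 samples, with 3 to 54 reads of dpydb in each, the r values serve only as a ranking.

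The enzymes and carriers around the route were read as 7 lists, with 76 genes found beside the members. After PNX-14 none of the 69 tested in hypothalamus and none of the 61 tested in ovary passed an adjusted p of 0.05 with edgeR, and none did with DESeq2. Over all genes edgeR called 0% of 17126 in hypothalamus and 0.0135% of 14777 in ovary, and DESeq2 called 5 and 29 genes. In hypothalamus the smallest adjusted p of any gene with edgeR was 0.979, so no gene passed there, in the lists or outside them. At an unadjusted p under 0.05 there were 4 of 69 in hypothalamus, where 3.9% of all genes were under it, and 7 of 61 in ovary, where 7.99% were. The median log2 fold change was 0.07 over the ovary list genes (35 positive, 26 negative) and -0.02 over all ovary genes. In hypothalamus 35 were positive and 34 negative.

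The list for uracil and thymine supply held 5'-nucleotidases, deaminases and phosphorylases, and its genes did not move together. Only the phosphorylases release the bases which dpydb consumes, and some of the nucleotidases also act on purine nucleotides. Of the 15 list genes tested in hypothalamus 9 were positive (median 0.04). The 5'-nucleotidase gene nt5e averaged 30.6 ± 7.41 CPM over the 6 control hypothalami and 42.2 ± 9.15 CPM over the 6 treated ones (SD; log2 fold change 0.46, adjusted p = 0.979 with edgeR), and the cytidine deaminase gene cdab had a log2 fold change of -0.38. In ovary 5 of 11 were positive (median -0.01), with the uridine phosphorylase gene upp2 at -0.54 (adjusted p = 0.680 with edgeR).

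The list around beta-alanine and beta-aminoisobutyrate, the products of the route, also held genes of valine breakdown, carnosine and taurine. Not all of its genes use these products. It gave 4 positive of 12 in hypothalamus (median -0.10) and 6 of 11 in ovary (median 0.04). The gene hibch, a hydrolase of valine breakdown, had the smallest p of the list in both organs, with log2 fold changes of 0.31 in hypothalamus and 0.55 in ovary (adjusted p = 0.979 and 0.594 with edgeR). Control hypothalami held it at 37.2 to 67.6 CPM and PNX-14 hypothalami at 49.4 to 67.0 CPM. The overlap came from control replicate 5 alone, as the other controls reached 44.1 CPM at most.

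The opposite route, de novo pyrimidine synthesis, had a median of 0.12 in hypothalamus (5 of 7 positive) and 0.10 in ovary (6 of 7 positive). The CTP synthase gene ctps1a (ENSTNIG00000009806) had a log2 fold change of 0.25 in hypothalamus (adjusted p = 0.979 with edgeR), and umps, which completes the synthesis of UMP, one of 0.32 in ovary (adjusted p = 0.686).

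Among the 10 salvage kinases and nucleoside carriers tested in ovary, 5 were positive and 5 negative. The carrier gene slc29a2 stood at 81.9 to 105 CPM in control ovaries and 115 to 175 CPM after PNX-14. It was the 1 of 61 list genes in ovary whose groups did not overlap (1.46% of all genes, as above), with a log2 fold change of 0.47 and an adjusted p of 0.562 with edgeR. Its paralog slc29a1a had -0.32 (adjusted p = 0.595). In hypothalamus 0 of 69 list genes had groups that did not overlap.

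Thymidylate and deoxynucleotide genes had a median of -0.12 in hypothalamus (7 of 8 negative) and 0.08 in ovary (8 of 9 positive). Oocyte markers, whose summed level had a median of 1667 CPM in control hypothalami and 709 CPM after PNX-14, moved the same way in hypothalamus, and their part was not tested. A ribonucleotide reductase gene, RRM2 (ENSTNIG00000001955), had the largest value in ovary, at 1.18 (adjusted p = 0.594 with edgeR). It was low, with 1.84 ± 0.64 CPM in control ovaries and 4.18 ± 3.73 CPM in treated ones, and its reads may be shared with the other RRM2 copies.

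The dihydropyrimidinase-like genes, which encode collapsin response mediators of axon growth and no known enzyme of this route, gave 2 positive and 2 negative in each organ. Purine breakdown genes served as the matching route for the other class of bases. Their median was 0.06 in hypothalamus (8 of 12 positive) and -0.47 in ovary (6 of 9 negative). The adenosine deaminase gene ada went from 2.97 ± 1.74 to 1.13 ± 0.39 CPM in ovary (log2 fold change -1.38) and the AMP deaminase gene AMPD3 from 21.7 ± 9.30 to 10.7 ± 2.95 CPM (-1.03; SD, n = 5 each), both with an adjusted p of 0.562 with edgeR.

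The treatment response of these lists was not shown to differ between organs. For the difference of the 2 responses 0 of 71 list genes passed an adjusted p of 0.05 with edgeR, where 0.00561% of 17840 genes passed. With DESeq2 no list gene passed, and 25 of all genes did. An unadjusted p under 0.05 with edgeR was found for 6 of the 71 list genes and for 1104 of the 17840 genes.

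Between organs the lists differed widely, as did most genes. With dpydb included, 33 of 72 were higher in hypothalamus and 31 higher in ovary, or 45.8 and 43.1%, against 47.4 and 41.5% of all genes. Of 15 supply genes 10 were higher there and 3 in ovary, with the cytidine deaminase gene cdab higher by 5.65, the thymidine phosphorylase gene TYMP by 3.48, nt5e by 3.25 and the uridine phosphorylase gene upp1 (ENSTNIG00000018403) by 3.04 on the log2 scale. On the product side abat, the transaminase of beta-alanine and GABA, stood at 234 ± 20.6 CPM in control hypothalami (n = 6) and 15.2 ± 4.59 CPM in control ovaries (n = 5), and agxt2, an aminotransferase of beta-aminoisobutyrate, was higher in hypothalamus by 3.04. In the same list 7 of 12 genes were higher in ovary, including csad (2.69 lower in hypothalamus on the log2 scale), a decarboxylase of taurine synthesis.

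Of 7 genes tested in de novo synthesis 5 were higher in ovary and 1 in hypothalamus, with umps at 94.9 ± 20.8 CPM in control ovaries (n = 5) and 15.1 ± 4.43 CPM in control hypothalami (n = 6), and dhodh at 76.1 ± 24.3 and 20.0 ± 3.38 CPM. The gene called higher in hypothalamus was cmpk2, a mitochondrial nucleotide kinase known as an interferon-responsive gene in mammals, by 2.39. All 9 thymidylate and deoxynucleotide genes were higher in ovary, among them dtymk (150 ± 34.4 and 28.2 ± 9.76 CPM) and the main RRM2 copy (ENSTNIG00000002509, 315 ± 68.0 and 40.2 ± 21.3 CPM). Salvage was mixed, with 4 of 12 higher in hypothalamus and 6 in ovary. All 4 dihydropyrimidinase-like genes (dpysl2b by 7.31) and 10 of 12 purine breakdown genes (ampd2b by 5.35) were higher in hypothalamus. Every gene named in the organ comparison as higher in one organ passed an adjusted p of 0.05 with edgeR, the largest of them being 0.00024 for cmpk2.

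**Figure D5:**
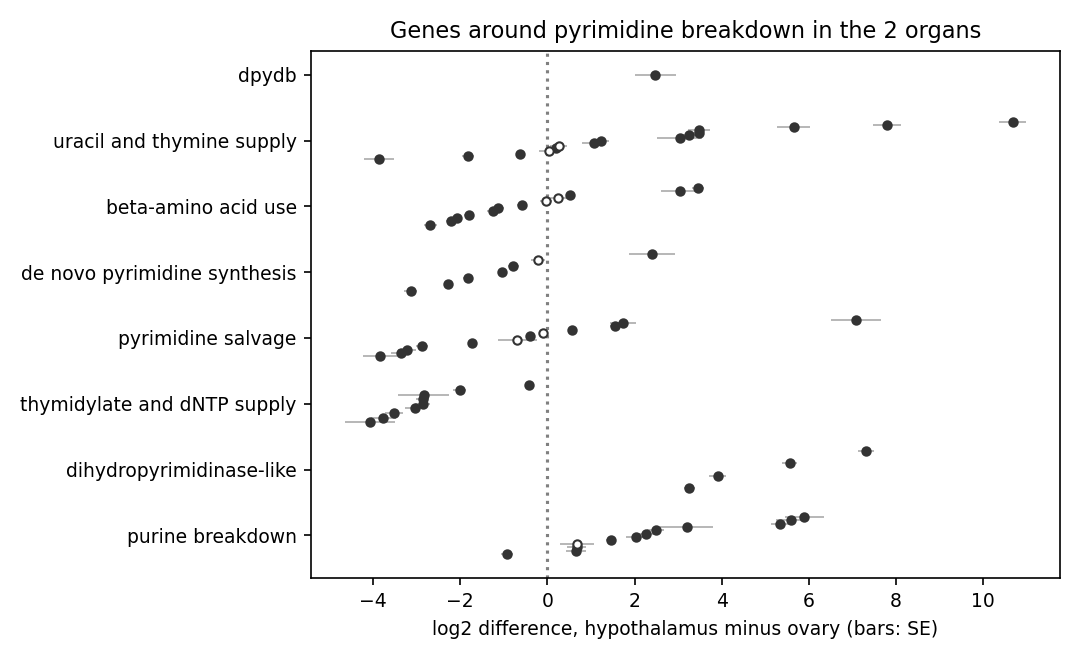
Log2 difference between hypothalamus and ovary, averaged over treatments, for dpydb and the genes of 7 lists that were tested, with standard errors as bars. Filled points passed an adjusted p of 0.05 with edgeR. The gene dpydb (2.48) lies on the hypothalamus side together with 12 of 15 supply genes, 10 of them filled, whereas all 9 thymidylate and deoxynucleotide genes lie on the ovary side.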

How the data were processed

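Poly(A) RNA from 12 hypothalami and 10 ovaries was sequenced as directional libraries in paired reads of 150 bases. The authors trimmed reads with fastp, aligned them to the Ensembl TETRAODON 8.0 genome with HISAT2 and deposited whole-read counts per gene from featureCounts and FPKM in 1 table per organ, with versions and the strand setting of counting not given in the sources used here. Their fold change and p-value columns from DESeq2 were not used, nor were 22 columns of normalized values.

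Counts were tested with edgeR 4.0.16 (limma 3.58.1, R 4.3.3) by a quasi-likelihood fit with TMM scaling, filterByExpr and Benjamini-Hochberg adjustment at 0.05 over all genes tested, separately per organ for treatment and on all 22 samples for organ and interaction contrasts, where a gene absent from 1 table (762 only in hypothalamus, 129 only in ovary) was taken as 0. CPM use the same scaling. Log2 CPM use a prior count of 2. The fits were tested on simulated data. P-values of the treatment tests within an organ measure the spread between fish. The organ and interaction tests took the 22 samples as independent, although both organs came from the same fish. FPKM served only to compare levels between genes. DESeq2 1.42.0, no filter, each sample left out, a replicate block and an oocyte covariate were the alternatives.

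The members and gene lists were chosen with earlier results of these data known. Genes named were the members, of each list those past the test and the 2 with the smallest p in each direction per organ, the 5 genes most correlated with dpydb per organ, and the 2 nearest genes on each side. For the organ contrast, where 64 list genes passed, examples were taken, some of them outside the rule's smallest p-values and chosen after their values were seen.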

Additional observations from a re-analysis of the deposited data

Results flagged for a closer look

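Over the genes named here and the genes from which examples were drawn, 268 sets of a gene and a group were searched for a sample far from the rest of its group, by a gap of more than 0.71 of the range for 5 samples or 0.625 for 6. There were 15 such samples, and chance gives about 1 in 20. No sample of dpydb was among them, because its high controls number 3.

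The gene upb1 was at 0.371 CPM in control ovary replicate 6, with the other control ovaries at 0 to 0.0816 CPM. Beside dpydb, tmtc1 reached 61.3 CPM in control ovary replicate 1 (others 33.9 to 41.0). Control hypothalamus replicate 5 stood apart for hibch at 67.6 CPM (others 37.2 to 44.1), allc at 24.8 CPM (14 to 17.9) and ENSTNIG00000001452 at 4.14 CPM (0 to 0.711). Control hypothalamus replicate 4 stood apart for cmpk2 at 86.8 CPM (5.6 to 21.6) and nt5c1ab at 96.3 CPM (58.0 to 70.6), and replicate 6 for uck1 at 52.4 CPM (61.2 to 65.5). Control ovary replicate 6 held ampd3a at 0.309 CPM with the others at 0.

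Among PNX-14 ovaries, replicate 3 was far above the rest for slc29a2 at 175 CPM (115 to 125) and for RRM2 (ENSTNIG00000002509) at 484 CPM (269 to 316). The other single samples were CTPS1 at 29.0 CPM in replicate 2 (16.4 to 19.5), the RRM2 copy ENSTNIG00000001955 at 10.7 CPM in replicate 4 (1.75 to 3.78), ampd2b at 2.66 CPM in replicate 5 (0.998 to 1.45) and upp2 at 7.41 CPM in replicate 6 (4.07 to 4.29).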

How the results depend on the processing

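Of 138 recomputed values, 137 were taken as unchanged. They kept their direction and side of the threshold, kept a similar number of genes called, or moved by less than the spread between replicates. That spread was wide for dpydb, at 1.34 in hypothalamus and 0.69 in ovary on the log2 scale. Many were counts of list genes that stayed at 0. The exception, added after seeing the data, was the log2 fold change of dpydb in hypothalamus, which was -1.06 without the hypothalami above 5% of the ovary's oocyte marker level. The organ difference of dpydb counted as unchanged, though the same exclusion took it from 2.48 to 1.02. Leaving out each sample in turn gave -3.22 to -2.60 in hypothalamus, -2.16 to -1.70 in ovary, 2.29 to 2.61 for dpydb between organs, 63 to 66 list genes called between organs and 0 in the other comparisons. With DESeq2, dpydb was at -3.01 and -1.97, and 38 list genes were higher in hypothalamus and 30 in ovary. Correlations of same-numbered samples ran from -0.288 to 0.316 within organs and from -0.191 to 0.274 between organs, where 9 of 10 were positive and 6 exceeded 0.1. That a shared number marks a shared fish therefore remains an assumption. With the number as a replicate block dpydb was at -2.41 in hypothalamus and -2.04 in ovary, and with the assumed fish as the block 63 list genes differed between organs. The planned correlation of dpydb between organs and its alternatives were not run because control hypothalami form separate clusters. Depth limits dpys and upb1, whose counts reached 13 and 17 reads at most.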
